A study of Mus musculus with 6 samples.

Results

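The sarcomere is the contractile unit of heart muscle. Thick filaments of myosin are held at the M-band, thin filaments of actin, tropomyosin and troponin are anchored at the Z-disc, and titin runs between both. The Z-disc also carries stretch-responsive proteins, chaperones and the link to desmin intermediate filaments, and in mouse ventricle a shift from the Myh6 to the Myh7 heavy chain is a classic sign of hypertrophy. The genes described here were taken by symbol from a list of 39, of which 38 were found among the 13384 genes of the table. They comprise 8 genes of the thick filament with titin and a light chain kinase, 3 of the M-band, 7 of the thin filament, 11 of the Z-disc and 9 of 10 listed Z-disc partners. The symbol Murc was not matched; RefSeq gives it as an older name of Cavin4, which is described with the accessory genes.

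RNA was measured in left ventricles of adult mice of 2 groups, Cygb(-/-) global knockouts of cytoglobin and Cygb(+/+) wild-type littermates, with 3 mice in each. Every mouse, wild types included, was given the vasoconstrictor peptide angiotensin II by subcutaneous minipump, 1.5 mg/kg/day over 2 weeks. Each library was made from polyadenylated RNA of an individual mouse, and no animal without angiotensin II was analysed here. The labels name neither the strain nor the design of the deleted allele. Cygb itself was not analysed here, so genotype rests on the labels.

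Library totals ran from 23190864 to 30354857 counts. Levels are counts relative to library size (CPM) after TMM scaling, and fold changes are log2 values, knockout minus wild type. The ventricular light chain gene Myl2 was at 4533 to 5344 CPM in all libraries. Its atrial counterpart Myl7 was at 250 CPM in wild-type replicate 1 and at 12.0 to 27.6 CPM in the other libraries, so that library held atrial transcripts. The 8 genes listed as atrial were Myl7, Myl4, Sln, Nppa, Nr2f1, Nr2f2, Dkk3 and Upk3b. Their summed level was 529 to 607 CPM in knockout ventricles and 756 to 3152 CPM in wild-type ventricles. It was mostly Nppa, which stressed ventricle also makes. Without Nppa the sum was 73.8 to 79.3 CPM in knockout ventricles, against 870 CPM in wild-type replicate 1, 119 CPM in replicate 2 and 133 CPM in replicate 3. Relative to each gene's mean, transcripts of high GC content ran low in the knockout libraries (Spearman rho across 13102 genes of -0.48, -0.20 and -0.39 for replicates 1, 2 and 3). The same rho was 0.57, -0.26 and 0.49 for wild-type replicates 1, 2 and 3. Wild-type replicate 2 thus had the sign of the knockout libraries. Without it the sign over all genes divides the genotypes, and genotype and GC trend cannot be told apart in that fit. Over the 38 members the rho was -0.59, 0.23 and -0.37 for knockout replicates 1, 2 and 3. It was 0.68, -0.21 and 0.48 for wild-type replicates 1, 2 and 3. Over the members knockout replicate 2 thus had the sign of wild-type replicates 1 and 3, at a lower value. These values touch several results below.

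The myosin heavy chain genes carry microRNAs within them, and their sequences are shown because host and microRNA lie in the same transcription unit. The main mature forms from RefSeq (GRCm38.p6) are given with the seed, bases 2 to 8, in capitals; the microRNAs themselves were not measured in these libraries. The first lies within Myh6, the second within Myh7 and the last within Myh7b.
mmu-miR-208a-3p: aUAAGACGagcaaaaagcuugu
mmu-miR-208b-3p: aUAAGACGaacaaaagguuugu
mmu-miR-499-5p: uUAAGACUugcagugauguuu
The 208a and 208b forms share their seed and 19 of 22 bases. Myh6 and Myh7 lie next to each other on chromosome 14 on the same strand, 2666 bases apart in the RefSeq annotation.

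RefSeq promoter windows, from 250 bases before to 50 after the start, were found for 33 of the 38 genes. The M-CAT motif, CATTCC or its reverse complement GGAATG and the binding sequence of TEAD factors, was in a window of 14 of these 33 genes (42.4%), against 16.6% of all 27025 genes with a window. MEF2 motifs, searched by name on both strands, were in 18.2% of the 33 genes against 3.70% of all genes. The CArG box of SRF was in 15.2% against 1.81%. The median log2 fold change was -0.051 over the 14 genes with an M-CAT match and -0.060 over the 19 without. The TATA box (TATAAA) was in 18.2% against 15.7%. Counted per window, of which members had more per gene, M-CAT was in 31.2% of 48 member windows against 14.7% of 32851. Windows of Myh6, Myh7 and titin are shown, with M-CAT, TATA box and MEF2 matches in capitals; none of these matches overlapped another. In the Myh6 window the TATA box match begins 1 base after the start used. That window lies within the annotated Myh6 gene, which extends to base 54968017 of chromosome 14. Myh7 has a second RefSeq window (chr14:54994500-54994799), which overlaps the one shown and held none of the 3 motifs.
Myh6 promoter (chr14:54966558-54966857, minus strand): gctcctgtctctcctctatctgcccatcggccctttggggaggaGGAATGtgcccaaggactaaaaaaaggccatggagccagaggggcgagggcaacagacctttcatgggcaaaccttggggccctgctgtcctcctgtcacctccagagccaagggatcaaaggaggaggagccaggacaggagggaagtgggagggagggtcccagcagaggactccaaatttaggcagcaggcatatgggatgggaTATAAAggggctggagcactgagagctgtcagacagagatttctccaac
Myh7 promoter (chr14:54994577-54994876, minus strand): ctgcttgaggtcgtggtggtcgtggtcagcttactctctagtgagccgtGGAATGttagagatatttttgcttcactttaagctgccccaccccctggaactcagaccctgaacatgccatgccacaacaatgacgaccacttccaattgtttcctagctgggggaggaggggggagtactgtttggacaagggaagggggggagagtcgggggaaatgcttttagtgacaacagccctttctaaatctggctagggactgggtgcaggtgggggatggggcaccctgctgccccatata
Ttn promoter (chr2:76982498-76982797, minus strand): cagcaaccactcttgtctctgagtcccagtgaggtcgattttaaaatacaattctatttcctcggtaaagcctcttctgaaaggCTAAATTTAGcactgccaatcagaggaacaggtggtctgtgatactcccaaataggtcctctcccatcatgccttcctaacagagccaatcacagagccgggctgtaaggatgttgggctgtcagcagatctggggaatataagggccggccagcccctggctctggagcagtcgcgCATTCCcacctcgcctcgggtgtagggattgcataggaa

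No member of the set passed edgeR's quasi-likelihood test after adjustment over all 13384 genes, whereas 15 genes did in all (0.112%; 0.0897% higher and 0.0224% lower). At an unadjusted p under 0.05, 7 of the 38 members were higher in knockout ventricles, against 10.2% of all genes, and 2 were lower, against 8.94%. The smallest adjusted p among members was 0.132, for Synpo2l. The groups did not overlap for 5 higher members and 1 lower one, where 11.8% and 10.5% of all genes did so. The median log2 fold change was -0.051 over the members and -0.0045 over all genes, and 15 members were above 0. DESeq2 called 1 member higher (Nebl) and 1 lower (Synpo2l), where it called 4.71% of all genes (2.68% higher and 2.03% lower), and limma-voom called none. With size factors from heart muscle genes outside the sarcomere, which moved the median of all genes to -0.21 and of the members to -0.25, 0 members were higher and 13 lower at an unadjusted p under 0.05, where 2.49% of all genes were higher and 27% lower (29.5% together). Des passed as lower in that fit (edgeR adjusted p = 0.0370), where 5.12% of all genes passed (0.254% higher and 4.86% lower). Without knockout replicate 3, 0 members were higher and 2 lower at an unadjusted p under 0.05, where 5.6% of all genes were higher and 4.54% lower (10.1% together). Words such as higher and lower below describe values of members that did not pass.

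**Figure D1:**
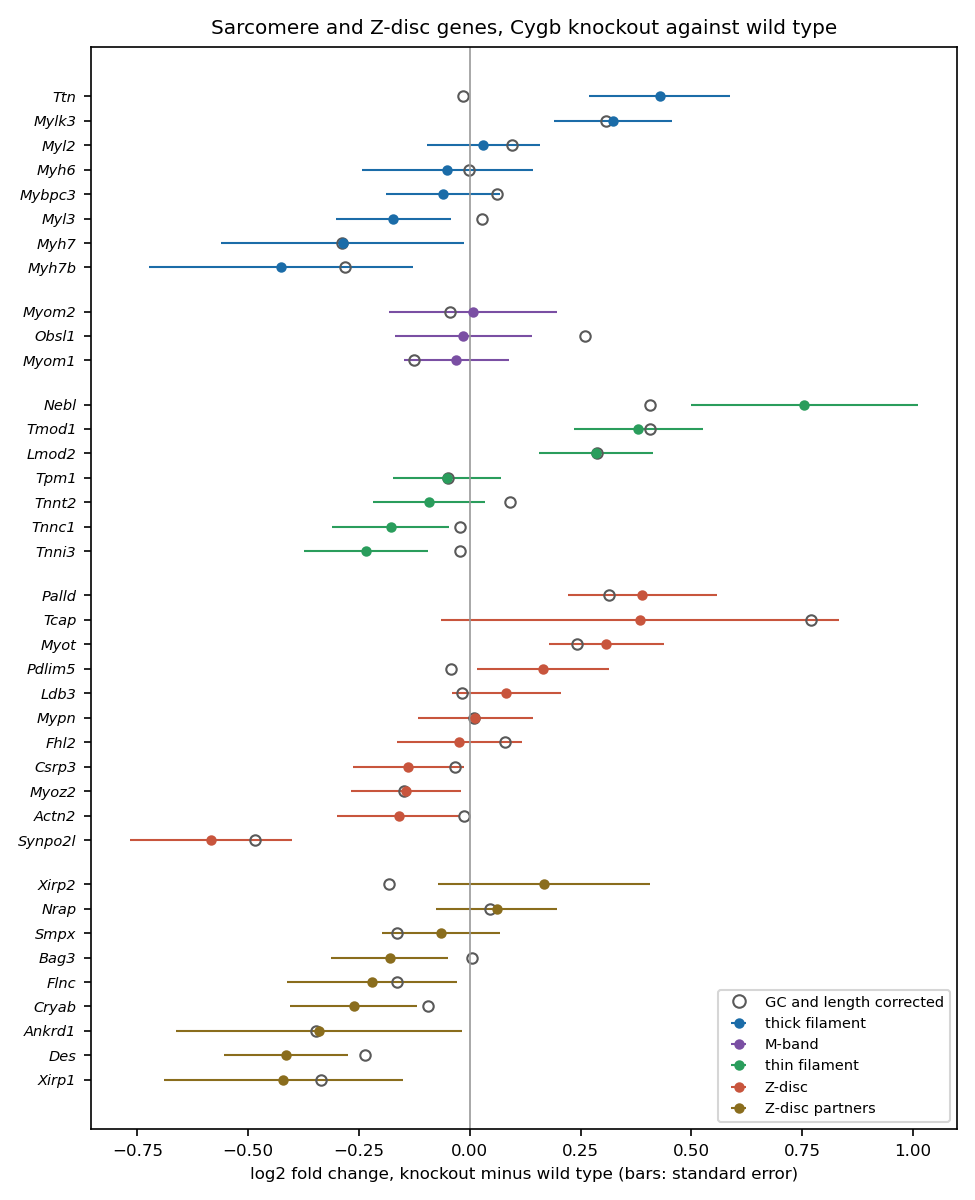
Log2 fold change, knockout minus wild type, of the 38 members (filled points, bars show the standard error, n = 3 mice each), grouped by place in the sarcomere; open circles are the values after correction for GC content and transcript length, fitted in every library. Titin lies at 0.43 before and -0.015 after that correction, and Nebl at 0.75 and 0.41.

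Within the thick filament, titin and a light chain kinase had higher values in knockout ventricles, while the heavy chains had overlapping groups. Ttn (chr2:76703980-76982557, GRCm38), which encodes the giant spring protein, was at 5011, 4304 and 6246 CPM in knockout replicates 1, 2 and 3, against 4140, 4160 and 3263 CPM in wild-type replicates 1, 2 and 3. All 3 knockout values lay above the wild-type ones, with knockout replicate 3 highest and wild-type replicate 3 lowest. The log2 fold change was 0.43 (SE 0.16, edgeR adjusted p = 0.179), and ran from 0.27 to 0.54 with single libraries left out. Titin has the second longest transcript in the table, 107 kb with a GC content of 47.4%. After removal of the trend on GC content and length its log2 fold change was -0.015, and after removal of the GC trend alone it was 0.33. The median transcript of all genes was 3.145 kb, so few genes set the length trend near titin. The trend was fitted without genotype, so it can also take up genotype differences that run with GC content or length.

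Mylk3, the cardiac kinase that phosphorylates the Myl2 light chain, was at 569, 471 and 554 CPM in knockout ventricles against 452, 451 and 372 CPM in wild-type ventricles. The groups did not overlap (log2 fold change 0.32, SE 0.13, edgeR adjusted p = 0.215). Unlike that of titin, its value was close after correction, at 0.31. Its substrate Myl2, the ventricular regulatory light chain, had overlapping groups. Myl2 was at 4922, 5170 and 4670 CPM in knockout ventricles against 4574, 4533 and 5344 CPM in wild-type ventricles (log2 fold change 0.031, SE 0.13, edgeR adjusted p = 0.915).

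Myh6, the main heavy chain gene of adult mouse ventricle, was at 19988, 29563 and 31712 CPM in knockout ventricles and 34456, 22584 and 27125 CPM in wild-type ventricles. The groups overlapped throughout, and the mean was 27088 ± 6242 CPM in knockout ventricles and 28055 ± 5990 CPM in wild-type ventricles (SD, n = 3 each). Its log2 fold change changed sign with single libraries, at 0.12 without wild-type replicate 1, the library with atrial transcripts, and 0.13 without knockout replicate 1. Myh7, the slow heavy chain that marks hypertrophy in mice, was at 841, 1819 and 1505 CPM in knockout ventricles and 1304, 2007 and 1768 CPM in wild-type ventricles. Knockout replicate 1 was lowest for Myh6, Myh7 and Myh7b alike. Without it, the Myh7 value was -0.027, against -0.29 with all libraries.

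The share of Myh7 in the summed Myh6 and Myh7 counts was 4.04%, 5.80% and 4.53% in knockout replicates 1, 2 and 3, against 3.65%, 8.16% and 6.12% in wild-type replicates 1, 2 and 3. The 95% Wilson intervals, which cover counting error only, were at most 0.135 percentage points wide. The mean was 4.79% ± 0.908 in knockout ventricles and 5.98% ± 2.26 in wild-type ventricles (SD, n = 3 each; exact permutation test, two-sided, p = 0.6, where 0.1 is the smallest p that 3 against 3 allows). The difference of -1.19 percentage points shrank to -0.0959 when wild-type replicate 2 was left out and was -2.35 when wild-type replicate 1 was. Myh6 and Myh7 are close paralogs and the counting method is not given, so reads may have been split between them. Myh7b, a slow-type heavy chain of low abundance, was at 89.1, 186 and 134 CPM in knockout ventricles and 235, 129 and 184 CPM in wild-type ventricles, with overlapping groups (log2 fold change -0.43, SE 0.30, edgeR adjusted p = 0.468). Leaving out knockout replicate 1 gave -0.20, knockout replicate 2 gave -0.72 and wild-type replicate 1 gave -0.21.

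**Figure D2:**
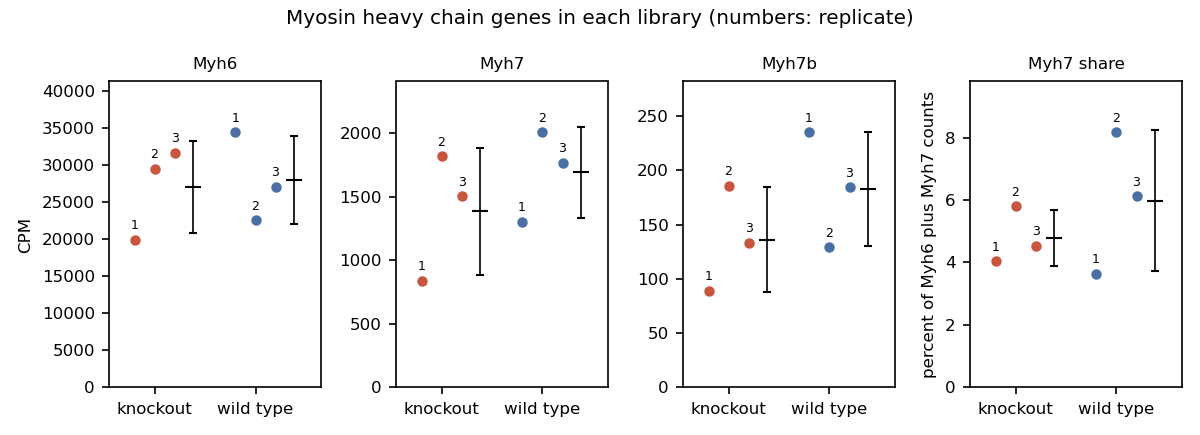
Levels (CPM) of the 3 myosin heavy chain genes and the Myh7 share of Myh6 plus Myh7 counts in each library; numbers give the replicate and bars the mean ± SD (n = 3). Knockout replicate 1 is the lowest library for each of the 3 genes, and wild-type replicate 2 has the highest Myh7 share at 8.16%.

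The other thick filament genes differed little. Mybpc3, which encodes the myosin-binding protein C of the A-band, averaged 4811 ± 435 CPM in knockout ventricles and 5017 ± 326 CPM in wild-type ventricles (SD, n = 3 each). Myl3, the essential light chain gene, averaged 4167 ± 119 CPM in knockout ventricles and 4695 ± 572 CPM in wild-type ventricles. The median over the 8 thick filament genes was -0.056, with 3 above 0.

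The M-band genes had log2 fold changes close to 0. Myom1 and Myom2, whose myomesin products cross-link thick filaments, had log2 fold changes of -0.031 (SE 0.12) and 0.0068 (SE 0.19). Obsl1, an obscurin-like linker, was at -0.014 (SE 0.15) and at 0.26 after correction for GC content and length; its transcript has the highest GC content of the members, 62.5%. Myom1 was at 1904 to 2111 CPM in knockout ventricles and 1987 to 2091 CPM in wild-type ventricles, a spread of 1.11-fold between the lowest and highest library.

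In the thin filament group, Nebl and the pointed-end genes Tmod1 and Lmod2 were higher in knockout ventricles, while the troponin genes and Tpm1 had slightly lower values. Nebl (chr2:17342673-17734949), which encodes nebulette, the nebulin relative of heart muscle, had the largest log2 fold change of any member. It was at 94.9, 68.5 and 101 CPM in knockout ventricles against 46.4, 74.1 and 36.1 CPM in wild-type ventricles. Knockout replicate 2 lay below wild-type replicate 2, so the groups overlapped through that pair of libraries. The log2 fold change was 0.75 (SE 0.26, edgeR adjusted p = 0.169). Nebl passed without wild-type replicate 2 (1.10, edgeR adjusted p = 0.00702, where 7.25% of all genes passed as higher). In that fit genotype and the GC trend of the libraries cannot be told apart, which also holds for Des, Cryab and Xirp2 below. The Nebl transcript has the lowest GC content of the members, 40.1%, and the Nebl value was 0.41 after correction for GC content and length.

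Tmod1, tropomodulin, which caps the pointed end of the thin filament, was at 241, 194 and 236 CPM in knockout ventricles against 186, 189 and 141 CPM in wild-type ventricles. Lmod2, leiomodin, which promotes elongation at the same end, was at 762, 953 and 950 CPM in knockout ventricles against 734, 750.5 and 703 CPM in wild-type ventricles. For both genes all knockout values lay above all wild-type ones, by a narrow margin between knockout replicate 2 and wild-type replicate 2 for Tmod1 and between knockout replicate 1 and wild-type replicate 2 for Lmod2. Their log2 fold changes were 0.38 (SE 0.15, edgeR adjusted p = 0.188) for Tmod1 and 0.28 (SE 0.13, edgeR adjusted p = 0.254) for Lmod2. After correction for GC content and length they were 0.41 for Tmod1 and 0.29 for Lmod2.

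The troponin genes ran a little lower. Tnni3, cardiac troponin I, was at 2196, 2461 and 2157 CPM in knockout ventricles against 2658, 2278 and 3080 CPM in wild-type ventricles (log2 fold change -0.23, SE 0.14, edgeR adjusted p = 0.373). The groups overlapped at wild-type replicate 2. Tnnt2, cardiac troponin T, was at 8077, 9440 and 8055 CPM in knockout ventricles against 9419, 8802 and 9031 CPM in wild-type ventricles (-0.092, SE 0.13). Tpm1, alpha-tropomyosin, was at 8126, 8284 and 7691 CPM in knockout ventricles against 8204, 7920 and 8852 CPM in wild-type ventricles (-0.051, SE 0.12). Tnnc1, cardiac troponin C, was at 1987 to 2365 CPM in knockout ventricles and 2181 to 2650 CPM in wild-type ventricles (-0.18, SE 0.13). After correction for GC content and length Tnni3 was at -0.021, Tnnc1 at -0.022, Tpm1 at -0.048 and Tnnt2 at 0.091. The median over all 7 thin filament genes, Nebl, Tmod1 and Lmod2 included, was -0.051 before correction and 0.091 after it.

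**Figure D3:**
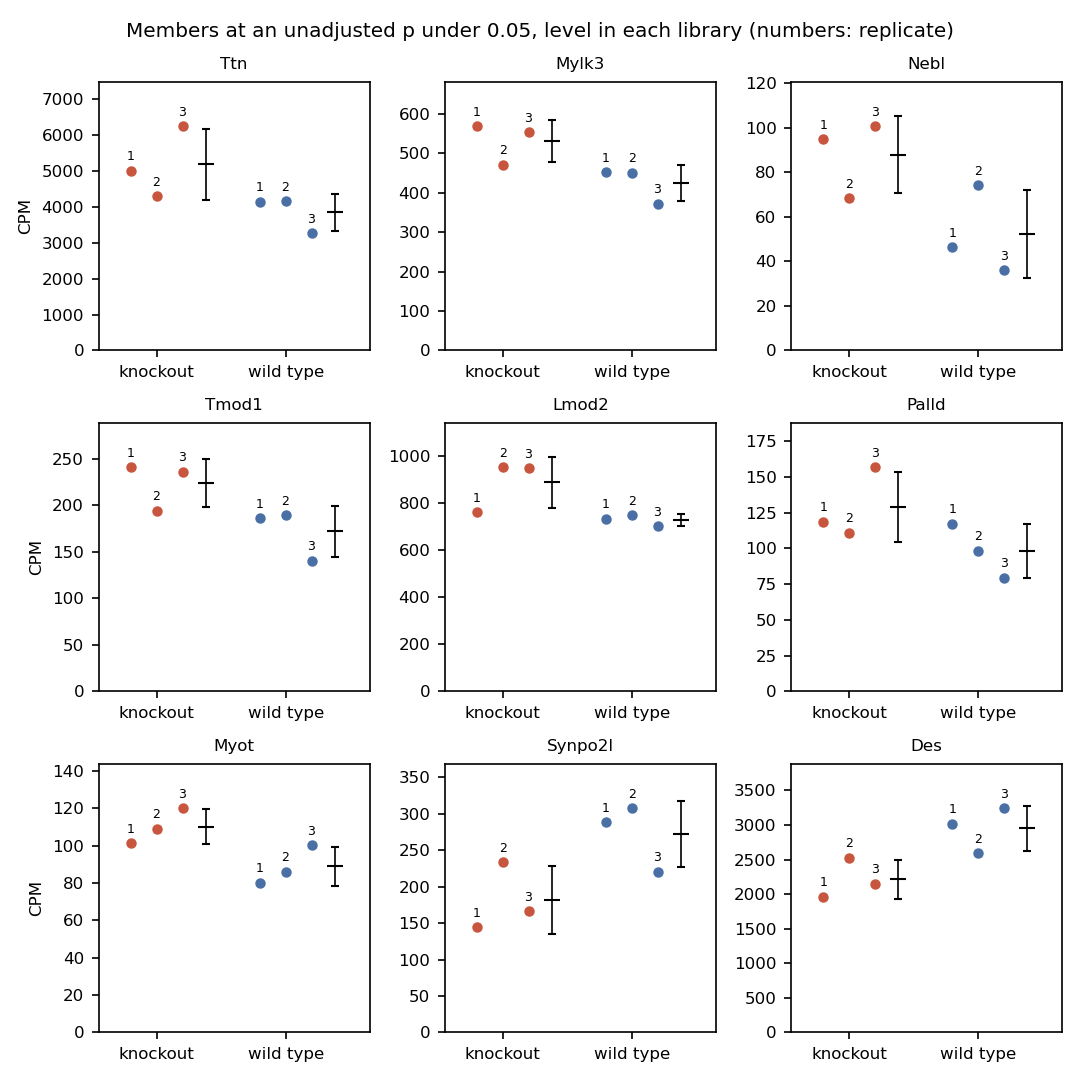
Level (CPM) in each library of the 9 members at an unadjusted edgeR p under 0.05; numbers give the replicate and bars the mean ± SD (n = 3). The groups do not overlap for Ttn, Mylk3, Tmod1, Lmod2, Myot and Des, and they overlap for Nebl, Palld and Synpo2l.

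Z-disc genes went both ways, with 6 of 11 above 0 and a median of 0.013. Synpo2l (chr14:20658945-20668354), which encodes a synaptopodin-like actin-bundling protein of the Z-disc, was the lowest of all members. It was at 145, 234 and 166 CPM in knockout ventricles against 288, 307 and 220 CPM in wild-type ventricles. Knockout replicate 2 reached above wild-type replicate 3, and the other knockout libraries lay below all wild-type ones. The log2 fold change was -0.58 (SE 0.18, edgeR adjusted p = 0.132; DESeq2 adjusted p = 0.0485) and -0.49 after correction for GC content and length.

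Palld, the actin scaffold palladin, and Myot, the related Z-disc protein myotilin, were higher. Palld was at 119, 111 and 157 CPM in knockout ventricles against 117, 98.3 and 79.5 CPM in wild-type ventricles (log2 fold change 0.39, SE 0.17, edgeR adjusted p = 0.234). Knockout replicate 2 was below wild-type replicate 1, and knockout replicate 3 stood above the rest. Myot was at 101, 109 and 120 CPM in knockout ventricles against 80.1, 86.1 and 100 CPM in wild-type ventricles (0.31, SE 0.13, edgeR adjusted p = 0.225). Its groups met between knockout replicate 1 and wild-type replicate 3 without overlap. After correction Palld was at 0.31 and Myot at 0.24. Palladin is also made in smooth muscle and fibroblasts, so its level in whole ventricle is not that of heart muscle alone. Mypn, encoding myopalladin, the heart and skeletal muscle member of this family, was at 0.013 (SE 0.13).

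In the core of the Z-disc the groups overlapped. Actn2, alpha-actinin, which cross-links thin filaments there, was at 2234, 2462 and 2539 CPM in knockout ventricles against 3016, 2260 and 2808 CPM in wild-type ventricles (log2 fold change -0.16, SE 0.14, edgeR adjusted p = 0.543). Csrp3, the muscle LIM protein, was at 1130, 1231 and 1143 CPM in knockout ventricles against 1258, 1178 and 1422 CPM in wild-type ventricles (-0.14, SE 0.12, edgeR adjusted p = 0.561). In both genes the groups overlapped at wild-type replicate 2. Tcap, which encodes telethonin, the cap of titin at the Z-disc, had the widest spread of the members at 3.57-fold between its lowest and highest library. It was at 1549, 1821 and 1523 CPM in knockout ventricles against 536, 1299 and 1913 CPM in wild-type ventricles, with wild-type replicate 1 far below the rest. Its log2 fold change of 0.38 (SE 0.45) was 0.022 without that library. Ldb3, Fhl2, Myoz2 and Pdlim5 had log2 fold changes between -0.14 and 0.16.

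Among the Z-disc partners 7 of 9 were below 0, with a median log2 fold change of -0.22. Des (chr1:75360292-75368579), desmin, the intermediate filament that ties Z-discs together, was at 1964, 2526 and 2153 CPM in knockout ventricles against 3019, 2592 and 3242 CPM in wild-type ventricles. It was the 1 member with all knockout values below all wild-type ones, by a small margin between knockout replicate 2 and wild-type replicate 2. The mean was 2214 ± 286 CPM in knockout ventricles and 2951 ± 330 CPM in wild-type ventricles (SD, n = 3 each; log2 fold change -0.41, SE 0.14, edgeR adjusted p = 0.152). Des was at -0.24 after correction for GC content and length, and it passed without wild-type replicate 2 (-0.49, edgeR adjusted p = 0.0284, where 6.39% of all genes passed as lower). Desmin is also made in smooth muscle and pericytes. All 5 smooth muscle markers were below 0, with a summed level of 157 to 203 CPM in knockout ventricles. In wild-type replicates 1, 2 and 3 the sum was 300, 222 and 205 CPM. Without wild-type replicate 1, Myh11, Cnn1 and Mylk were at 0.18, 0.27 and 0.0074, and Acta2 and Tagln at -0.57 and -0.34. Of 5 pericyte markers 2 were above 0 and 3 below. Their summed level was 533 to 552 CPM in knockout ventricles and 496 to 600 CPM in wild-type ventricles. The part of these cells in the Des value was not tested.

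Cryab, the small heat shock protein that binds desmin and titin, was at 1097, 1223 and 1060 CPM in knockout ventricles against 1461, 1102 and 1491 CPM in wild-type ventricles (log2 fold change -0.26, SE 0.14, edgeR adjusted p = 0.328). Wild-type replicate 2 again lay among the knockout libraries. Without it Cryab passed at -0.38 (edgeR adjusted p = 0.0456), and with correction for GC content and length it was at -0.094. Flnc, filamin C, and Bag3, the co-chaperone that handles damaged filamin, were at -0.22 (SE 0.19) and -0.18 (SE 0.13).

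The groups overlapped for the stretch-responsive genes. Ankrd1, a titin-associated ankyrin repeat protein induced by load, was at 1970, 3507 and 2352 CPM in knockout ventricles against 2539, 4914 and 2452 CPM in wild-type ventricles. Replicate 2 was the highest library in both groups. The log2 fold change was -0.34 (SE 0.32, edgeR adjusted p = 0.596), and it was 0.072 without wild-type replicate 2. Xirp2, a Xin-repeat actin-binding protein of the intercalated disc, was at 1305, 1259 and 1483 CPM in knockout ventricles against 1008, 1756 and 839 CPM in wild-type ventricles. The knockout values lay between the highest and the next wild-type value, so that the call turned on wild-type replicate 2: the log2 fold change was 0.17 (SE 0.24, edgeR adjusted p = 0.729) with it and 0.55 (edgeR adjusted p = 0.0171, where 7.25% of all genes passed as higher) without it. After correction for GC content and length it was -0.18. Its relative Xirp1 was at 182 to 325 CPM in knockout ventricles and 243 to 463 CPM in wild-type ventricles (-0.42, SE 0.27), and at -0.13 without wild-type replicate 1. Nrap and Smpx were at 0.061 and -0.065.

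**Figure D4:**
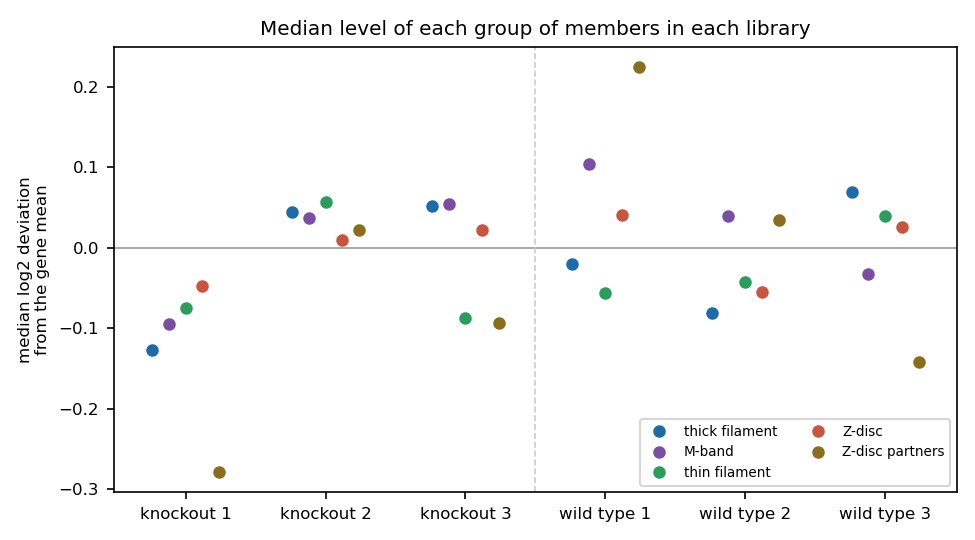
Median over each group of members of the log2 deviation from the gene's mean over the 6 libraries, for the knockout libraries (left) and the wild-type libraries (right). The Z-disc partners span -0.28 in knockout replicate 1 to 0.22 in wild-type replicate 1, and the other groups stay between -0.13 and 0.10.

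The members together took 8.10%, 10.3% and 9.48% of all counts in knockout replicates 1, 2 and 3, and 10.1%, 9.52% and 9.80% in wild-type replicates 1, 2 and 3. Knockout replicate 1 was the lowest library for 14 of the 38 members, and wild-type replicate 3 the highest for 11. In whole ventricle, fewer heart muscle cells and less RNA per cell cannot be told apart. The summed level of 16 heart muscle genes outside the sarcomere was 42272 CPM in knockout replicate 1, the library with the lowest member share, above the 36028 to 37804 CPM of wild-type ventricles. Of that sum Atp2a2 alone was 14605 CPM in knockout replicate 1, against 9979 to 12522 CPM in wild-type ventricles. Per kilobase of the longest coding transcript, the levels spanned from Tnnt2, at 7103 CPM per kb in knockout ventricles and 7570 in wild-type ventricles, down to Nebl, at 10.9 in knockout ventricles and 6.46 in wild-type ventricles. After Tnnt2 came Myl2, Myl3 and Myh6, at 5477, 4729 and 4510 CPM per kb over all libraries, then Tnnc1, Tpm1 and Tnni3. The longest transcript need not be the one expressed, so levels of genes with several isoforms, such as Ttn and Nebl, may be understated on this scale.

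Fold changes of members ran with the GC content of their transcripts. Across the 38 members, which are genes and not independent replicates, the Spearman rho of log2 fold change on GC content was -0.54, and it was -0.53 across 13102 genes. The 7 members higher at an unadjusted p under 0.05 had a median GC content of 48.6%, the 2 lower ones 56.5%, and the other 29 members 53.8%. With the correction for GC content and length 6 members were higher and 2 lower at that level, where 6.55% and 7.02% of all genes were. Ttn and Myot were no longer among the higher ones, and Obsl1 was. No member passed over all genes with the correction, where 0.381% of genes did (0.202% higher and 0.179% lower).

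**Figure D5:**
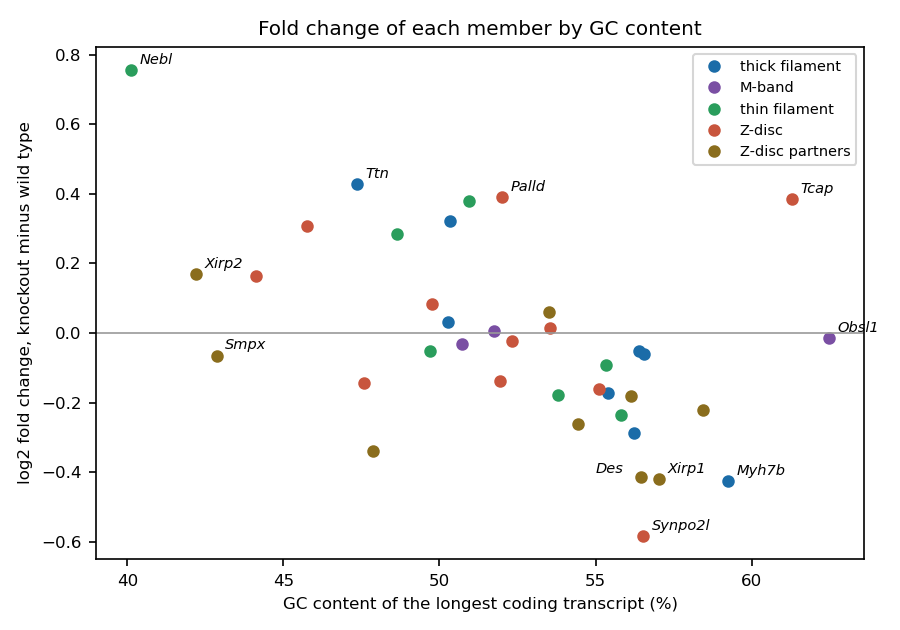
Log2 fold change, knockout minus wild type, of each member against the GC content of its longest coding transcript. Nebl, at the lowest GC content (40.1%), lies highest, and the points slope downward (Spearman rho -0.54 across 38 genes, which are not independent replicates), while Tcap (61.3% GC, 0.38) stands above the others of high GC content.

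Accessory genes of the sarcomere were taken from 2 lists. Of 29 measured other sarcomere genes, 1 passed and was lower, Acta1, which encodes the skeletal actin isoform of the stressed heart. It was at 786, 729 and 667 CPM in knockout ventricles against 1949, 1790 and 1602 CPM in wild-type ventricles (log2 fold change -1.29, SE 0.13, edgeR adjusted p = 0.00332), with groups far apart. After correction for GC content and length Acta1 was at -1.07 (edgeR adjusted p = 0.0111). Without knockout replicate 3 no gene of the whole table passed, Acta1 included. Its log2 fold change ran from -1.49 to -1.06 over the alternative fits. The median of this list was -0.067, with 14 genes above 0. Next by p-value were Tpm2, beta-tropomyosin (-0.87, SE 0.17, edgeR adjusted p = 0.0630), Pdlim7, a PDZ and LIM domain protein (-0.59, SE 0.14, edgeR adjusted p = 0.0762), and Ankrd23, a relative of Ankrd1 (-0.58, SE 0.15, edgeR adjusted p = 0.0999). None of these 3 passed in edgeR with all libraries. Their knockout values all lay below the wild-type ones, as did those of 10.5% of all genes. Without wild-type replicate 2 they passed, with Acta1, as the 4 lower genes of the list, against 6.39% of all genes. In that fit 1 gene passed as higher, Tmod2 (0.88), against 7.25%, and genotype and GC trend cannot be told apart. After correction for GC content and length Tpm2 was at -0.70, Pdlim7 at -0.22 and Ankrd23 at -0.39. DESeq2 called 4 genes of the list lower and 1 higher, against 2.03% and 2.68% of all genes.

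No gene passed in edgeR with all libraries among 25 genes of sarcomere assembly and turnover, of which 18 were below 0. The median was -0.16, and 0.022 after correction for GC content and length. At an unadjusted p under 0.05, 1 was higher and 4 were lower, against 10.2% and 8.94% of all genes. DESeq2 called 1 higher and 1 lower, against 2.68% and 2.03% of all genes. Without wild-type replicate 2, 1 passed in edgeR as higher (Fbxo32) and 4 as lower (Fbxl22, Stub1, Hspb6 and Hspb1). In that fit 7.25% of all genes passed as higher and 6.39% as lower, and genotype and GC trend cannot be told apart. Fbxl22, an F-box protein located at the Z-disc, was at 43.8, 43.7 and 35.2 CPM in knockout ventricles against 120, 60.9 and 111 CPM in wild-type ventricles (log2 fold change -1.25, SE 0.23, edgeR adjusted p = 0.0581). The value was -1.25 after correction for GC content and length as well. Mylk4, a kinase related to Mylk3, was at 176, 290 and 308 CPM in knockout ventricles against 157, 97.6 and 119 CPM in wild-type ventricles (1.05, SE 0.23, edgeR adjusted p = 0.0781). The groups did not overlap for either gene, where 10.5% of all genes were lower and 11.8% higher without overlap. The small heat shock protein genes Hspb1 and Hspb6 were at -0.51 (SE 0.16) and -0.42 (SE 0.15), and at -0.12 and -0.22 after correction. Cavin4, the gene also known as Murc, was at 122 to 133 CPM in knockout ventricles and 132 to 146 CPM in wild-type ventricles.

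Markers of other cells and of heart muscle outside the sarcomere are set beside these values. For 16 heart muscle genes outside the sarcomere the median was 0.12 (log2), with 11 above 0. Their summed level was 38724 to 43651 CPM in knockout ventricles and 36028 to 37804 CPM in wild-type ventricles. That sum leans on its most abundant genes, which went different ways. Atp2a2 was at 12950 to 16636 CPM in knockout ventricles and 9979 to 12522 CPM in wild-type ventricles (log2 fold change 0.41). Mb was at 10282 to 11812 CPM in knockout ventricles and 11360 to 12488 CPM in wild-type ventricles (-0.14). None of the 16 genes passed in edgeR, where 5 were higher at an unadjusted p under 0.05, against 10.2% of all genes. DESeq2 called 2 higher, against 2.68% of all genes. These were the ryanodine receptor gene Ryr2, at 0.70 (SE 0.16, edgeR adjusted p = 0.0722, DESeq2 adjusted p = 0.00263), and Corin, the protease that processes natriuretic peptides, at 0.66 (SE 0.13, edgeR adjusted p = 0.0562, DESeq2 adjusted p = 0.000592). Both also passed in edgeR without wild-type replicate 2, where 7.25% of all genes passed as higher. Cox6a2 of the same list passed there as lower (-0.40, edgeR adjusted p = 0.0379), where 6.39% of all genes did. In that fit genotype and GC trend cannot be told apart. All 7 fibroblast markers were below 0, with a summed level of 1048 to 1243 CPM in knockout ventricles. In wild-type replicates 1, 2 and 3 that sum was 1071, 2337 and 1102 CPM. Only replicate 2 lay above the knockout range. Without wild-type replicate 2, Pdgfra, Col1a2, Dcn, Lum and Postn were above 0 (log2 fold changes 0.047 to 0.43). Col1a1 and Tcf21 stayed below 0, at -0.24 and -0.62. All 6 macrophage markers were above 0, with a summed level of 313 to 336 CPM in knockout ventricles and 256 to 309 CPM in wild-type ventricles. Of that sum Lyz2 was 156 to 192 CPM in knockout ventricles and 133 to 184 CPM in wild-type ventricles (log2 fold change 0.11). Without wild-type replicate 1 Lyz2 was at -0.0064 and the other macrophage markers stayed above 0. The groups did not overlap for 1 of the 6, Cd163, where 11.8% of all genes were higher without overlap. Of 9 skeletal muscle markers Acta1 alone was matched. How these markers bear on the member values was not tested.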

How the data were processed

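Left ventricle polyadenylated RNA of 6 mice was sequenced, and the authors deposited gene counts that were not normalized, in whole numbers. The submitters' processing notes name mm10 and DESeq2 without versions; aligner, counter, use of strand and filters: not given in the sources used here. Every count was at least 12, and 170 genes had no symbol. Counts were fitted over all 13384 genes in edgeR 4.0.16 (R 4.3.3) by the robust quasi-likelihood test with TMM size factors and filterByExpr, which removed 0 genes; the model set 3 knockout against 3 wild-type libraries and had no covariates. P-values are two-sided and Benjamini-Hochberg adjusted over all genes, with a threshold of 0.05, and standard errors come from the test statistic. The common biological coefficient of variation was 0.166. Per the labels each library is an individual mouse. Members and lists were chosen with earlier results of these data known, so a list has counts and a median and no test. Values in every library were given for members at an unadjusted p under 0.05 and for 12 core genes, and accessory genes were the up to 4 of each list with the smallest p; further members, markers and libraries were named after their values were seen. Length and GC content came from the longest coding transcript in GENCODE M21, found for 97.9% of genes; gene positions and sequences are from RefSeq GRCm38.p6. The trend correction used splines with 4 degrees of freedom, fitted to each library with no genotype term. Alternatives tried were size factors by RLE or upper quartile, a stricter filter and none, DESeq2 1.42.0, limma-voom (limma 3.58.1), estimation without robustness, a threshold of 0.1, the replicate block, the trend correction with and without the block, and each library left out. 2 further alternatives, GC content corrected without length and size factors from 16 heart muscle genes outside the sarcomere, were chosen after seeing the data. The fit was tested on simulated data.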

Additional observations from a re-analysis of the deposited data

How the results depend on the processing

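Over all genes, where 12 were called higher and 3 lower, DESeq2 called 352 higher and 266 lower, limma-voom 5 lower, estimation without robustness 7 higher, and a threshold of 0.1 gave 193 higher and 125 lower. The correction for GC content and length gave 27 higher and 24 lower, that for GC content alone 16 lower, and size factors from heart muscle genes 34 higher and 651 lower. The replicate block gave 131 higher and 87 lower over all genes, and with the correction 20 and 23; of the members, 4 were higher at an unadjusted p under 0.05 with the block alone (9.05% of all genes) and 4 were lower with both (6.52%). Mice that share a replicate number had correlations of their deviations of -0.12, -0.076 and -0.15, so the numbers were not taken to pair them.
Among the members DESeq2 called 1 higher and 1 lower, and the heart muscle size factors called 1 lower, with 0 higher and 13 lower at an unadjusted p under 0.05 (2.49% and 27% of all genes). These size factors moved the median of all genes to -0.21 and that of the members to -0.25, the thick filament to -0.25, the M-band to -0.21, the thin filament to -0.25, the Z-disc to -0.19 and the partners to -0.41. The thin filament median was 0.091 with the GC content and length correction, with and without the block, and 0.034 with GC content alone, where the thick filament median was 0.058.
With each library left out in turn, 0 to 971 of all genes were called higher and 0 to 855 lower, both highest without wild-type replicate 2. In that fit genotype and the GC trend of the libraries cannot be told apart. Members called were 0 to 2 higher and 0 to 2 lower; at an unadjusted p under 0.05 they were 0 to 8 higher, where leaving out knockout replicate 3 gave 0 (5.6% of all genes), wild-type replicate 1 gave 4 (8.82%) and wild-type replicate 3 gave 2 (6.15%), and 1 to 5 lower. Median log2 fold changes ran from -0.075 to -0.0095 over the members, -0.13 to 0.020 for the thick filament, -0.066 to 0.050 for the M-band, -0.079 to -0.0059 for the thin filament, -0.033 to 0.071 for the Z-disc and -0.33 to -0.093 for the partners. The difference in Myh7 share ran from -2.35 to -0.0959 percentage points.
The log2 fold changes of some members changed sign, and the cause was not tested. With the correction for GC content and length they were Bag3 0.0048, Fhl2 0.079, Ldb3 -0.017, Mybpc3 0.061, Myl3 0.028, Myom2 -0.045, Obsl1 0.26, Pdlim5 -0.043, Tnnt2 0.091, Ttn -0.015, Xirp2 -0.18. With the block as well they were Bag3 0.0015, Fhl2 0.086, Ldb3 -0.013, Mybpc3 0.061, Myl3 0.029, Myom2 -0.077, Obsl1 0.26, Pdlim5 -0.044, Tnnt2 0.091, Ttn -0.018, Xirp2 -0.16. With GC content alone they were Fhl2 0.015, Flnc 0.0062, Mybpc3 0.10, Myh6 0.12, Obsl1 0.38, Pdlim5 -0.0048, Tnnt2 0.034, Xirp2 -0.020. With heart muscle size factors they were Ldb3 -0.12, Myl2 -0.17, Myom2 -0.20, Mypn -0.19, Nrap -0.14, Pdlim5 -0.051, Xirp2 -0.060. Myom2 was -0.0065 with upper quartile size factors, and Myom2 and Obsl1 were -0.030 and 0.0094 with limma-voom and -0.030 and 0.0089 with the replicate block. With single libraries left out, members that changed sign spanned Ankrd1 -0.62 to 0.072, Fhl2 -0.13 to 0.11, Flnc -0.37 to 0.0043, Mybpc3 -0.12 to 0.0088, Myh6 -0.18 to 0.13, Myl2 -0.0069 to 0.11, Myom1 -0.066 to 0.0079, Myom2 -0.21 to 0.20, Mypn -0.045 to 0.13, Nrap -0.037 to 0.15, Obsl1 -0.17 to 0.14, Smpx -0.14 to 0.078, Xirp2 -0.038 to 0.55. The other 19 members kept their direction in the 18 alternative fits.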
